A study of Arabidopsis thaliana with 21 samples.

Results

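The cytokinin synthesis and response genes described here were IPT3, CYP735A1, CYP735A2, LOG7, ARR7 and ARR15, 6 of the 2945 Arabidopsis genes with values in any of the 4 deposited tables, matched by locus. All 6 were listed in roots, among 1128 root genes. IPT3, LOG7 and ARR7 were listed in protoplasts, among 2065 protoplast genes. The study compared 7 groups of 3 RNA sequencing libraries, 21 in all, and asked whether KIN10 acts in nitrate signalling and on NLP7. KIN10 belongs to the SnRK1 kinase, which acts when cellular energy is low, and NLP7 is a transcription factor that carries the nitrate signal. Root groups came from seedlings of a Landsberg erecta (Ler) line carrying p35S:KIN10-HA, called KIN10ox here, and of wild-type Ler, each with 5 mM KNO3 or 5 mM KCl for 1 h. All of these seedlings had first grown for 7 days on MGRL medium with 5 mM nitrate and then for 2 days without nitrogen. The 35S promoter drives the transgene in most cell types, and the labels do not say how many lines were used. Protoplast groups were mesophyll cells of Col-0 plants aged 4 weeks, kept at 8 h light and 16 h dark, that expressed NLP7-GFP with KIN10-Myc, NLP7-GFP alone, or GFP. Transient expression reaches a part of the cells, and a library holds the RNA of all of them.

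Cytokinins are adenine-derived hormones that carry nitrogen status between root and shoot. Isopentenyltransferases such as IPT3 add the side chain, the cytochrome P450 enzymes CYP735A1 and CYP735A2 hydroxylate it to give trans-zeatin forms, and LOG enzymes such as LOG7 release the active base from its nucleotide. Perception by histidine kinases passes phosphate through AHP proteins to type-B response regulators, which switch on type-A regulators such as ARR7 and ARR15, and these dampen the signal. IPT3 and both CYP735A genes are known as nitrate-responsive genes of Arabidopsis.

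IPT3 (AT3G63110) lies at chr3:23317971-23319636 in 1 exon, CYP735A1 (AT5G38450) at chr5:15393720-15397295 and CYP735A2 (AT1G67110) at chr1:25061673-25065446 in TAIR10 coordinates. LOG7 (AT5G06300) lies at chr5:1921548-1925407, ARR7 (AT1G19050) at chr1:6577833-6579314 and ARR15 (AT1G74890) at chr1:28131447-28133025. All 6 genes are on the minus strand, and no other annotated gene overlaps them. The coding bases of CYP735A1 and CYP735A2 were identical at 77.0% of 1536 aligned positions, and the longest stretch shared by their transcripts was 36 bases. ARR7 and ARR15 were identical at 79.0% of 586 aligned coding positions with a longest shared stretch of 19 bases. How the authors' counting treated reads that fit both genes of a pair is not stated in the labels or headers.

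The 250 bases before the annotated start of both type-A regulators are shown because these genes are read as cytokinin outputs. The sequences come from the RefSeq TAIR10.1 assembly, minus strand, and are written 5′ to 3′ in the direction of the gene at chr1:6579315-6579564 for ARR7 and chr1:28133026-28133275 for ARR15. Capitals mark AAGATT or its reverse complement AATCTT and the palindrome AGATCT, letters associated with type-B regulator binding.
ARR7: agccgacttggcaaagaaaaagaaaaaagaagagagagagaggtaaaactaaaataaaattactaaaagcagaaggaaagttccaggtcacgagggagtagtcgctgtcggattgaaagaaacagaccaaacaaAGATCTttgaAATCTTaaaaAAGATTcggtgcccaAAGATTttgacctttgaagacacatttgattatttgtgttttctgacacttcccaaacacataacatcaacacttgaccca
ARR15: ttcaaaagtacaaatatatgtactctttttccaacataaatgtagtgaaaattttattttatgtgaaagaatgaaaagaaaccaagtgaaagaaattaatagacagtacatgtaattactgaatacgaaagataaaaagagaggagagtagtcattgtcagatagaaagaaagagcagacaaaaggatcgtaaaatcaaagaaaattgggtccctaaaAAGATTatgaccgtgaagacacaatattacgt
The ARR7 window held 3 matches to AAGATT and 1 to AGATCT on either strand, none of which overlapped, all between 116 and 76 bases before the start. The ARR15 window held 1 match to AAGATT, 32 to 27 bases before the start. Of 27443 promoters of the same length, 30.5% had AAGATT at least once, 0.9% had it 3 or more times and 5.98% had AGATCT. A degenerate form of the nitrate-responsive element, searched on both strands, was in 0.947% of promoters and in neither of these, which says only that these letters are not in this window. A match is a stretch of letters and not a measured binding site.

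Values were available for genes that the authors had listed as changed in a comparison, and their level in FPKM (fragments scaled to transcript length and to the mapped fragments of the library) can be compared between genes. Library sizes recovered from the tables lay between 19704992 and 20236648 mapped fragments for roots, and between 16189745 and 20437499 for protoplasts. Root and protoplast tables were normalized separately, so their levels are given side by side with no comparison. KIN10 and NLP7 are in neither root table, so the KIN10ox label was not checked. In the growth field, the labels of the KIN10ox libraries give the transgenic seedlings and then wild type as the source of the roots. The genotype field was used. None of 6 root epidermis and cortex markers and none of 6 vascular markers was listed in roots, so the tissue could not be checked with them. Summed FPKM of 6 germinating seed markers was 36.2, 4.43 and 112 in the KIN10ox libraries with KCl, against 1.92 to 7.96 in the other 9 root libraries. Summed FPKM of the 11 of 12 leaf photosynthesis markers listed was 77.1, 119 and 86.8 in KIN10ox roots with KNO3, 393, 207 and 665 in KIN10ox roots with KCl, 160 to 168 in Ler roots with KNO3, and 190 to 370 in Ler roots with KCl. In whole roots, a change in the number of cells of a type and a change in RNA per cell cannot be told apart.

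With nitrate, IPT3, both CYP735A genes and ARR7 were higher in every library of both genotypes, and LOG7 was lower. IPT3 had 14.99, 12.1 and 15.6 FPKM in KIN10ox roots with KNO3, against 1.37, 1.92 and 1.96 FPKM with KCl. In Ler roots IPT3 had 20.6, 17.4 and 19.5 FPKM with KNO3, against 0.9, 1.23 and 1.67 FPKM with KCl. No KNO3 library came near the range of the KCl libraries. The authors' deposited table gave IPT3 a log2 fold change of 3.22 in KIN10ox roots (adjusted p = 6.77e-60) and of 4.02 in Ler roots (adjusted p = 2.84e-99). These tables list genes for this very contrast, and nothing is read from the counts of calls in them. In KIN10ox, 5 of the 6 genes passed an adjusted p of 0.05, 4 higher and 1 lower, where 77% of the listed genes passed, 45.5% higher and 31.6% lower. In Ler, 5 of 5 passed, 4 higher and 1 lower, where 88.3% passed, 64.2% higher and 24.2% lower. Libraries with KNO3 and KCl did not overlap for 6 of the 6 genes in KIN10ox, beside 81.6% of all 1128 root genes, and for 5 of the 6 in Ler, beside 73.9%.

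Both hydroxylase genes stood at different levels and rose alongside each other. CYP735A1 had 4.16, 3.68 and 4.50 FPKM in KIN10ox roots with KNO3, against 1.24, 1.37 and 1.49 FPKM with KCl. In Ler roots CYP735A1 had 4.54, 4.40 and 3.66 FPKM with KNO3, against 0.65, 0.77 and 0.97 FPKM with KCl. The KNO3 and KCl ranges of CYP735A1 were apart in both genotypes, with log2 fold changes in the authors' deposited tables of 1.79 in KIN10ox (adjusted p = 5.57e-13) and 2.50 in Ler (adjusted p = 7.14e-21). CYP735A2 had 21.5, 19.4 and 35.5 FPKM in KIN10ox roots with KNO3, against 6.27, 6.64 and 8.21 FPKM with KCl. In Ler roots CYP735A2 had 22.9, 17.6 and 26.3 FPKM with KNO3, against 2.15, 3.01 and 3.54 FPKM with KCl. The groups of CYP735A2 did not overlap, and KIN10ox library 3 with KNO3 stood above the other KNO3 libraries. In the authors' deposited tables its log2 fold change was 2.09 in KIN10ox (adjusted p = 2.50e-21) and 3.06 in Ler (adjusted p = 5.48e-66). CYP735A2 was the more abundant of the pair in all 12 root libraries. Its FPKM was 5.16 to 7.88 times that of CYP735A1 in KIN10ox with KNO3, 4.85 to 5.51 times in KIN10ox with KCl, 4.01 to 7.18 times in Ler with KNO3 and 3.31 to 3.91 times in Ler with KCl. Of these ratios, those of Ler roots with KCl were lower than in every other root library.

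LOG7 moved against the other synthesis genes. It had 24.2, 18.4 and 32.4 FPKM in KIN10ox roots with KNO3, against 61.3, 66.6 and 60.6 FPKM with KCl. In Ler roots LOG7 had 22.2, 25.9 and 29.5 FPKM with KNO3, against 54.5, 59.0 and 63.4 FPKM with KCl. All KCl libraries were above all KNO3 libraries, and the mean was 2.51 ± 0.415-fold lower with KNO3 in KIN10ox and 2.28 ± 0.21-fold lower in Ler (SE, n = 3 each). The authors' deposited tables gave log2 fold changes of -1.14 in KIN10ox (adjusted p = 3.82e-12) and -1.08 in Ler (adjusted p = 8.38e-23).

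Of the response regulators, ARR7 was high and raised by nitrate, and ARR15 was close to the lowest countable level. ARR7 had 46.1, 29.5 and 51.4 FPKM in KIN10ox roots with KNO3, against 15.2, 14.6 and 12.7 FPKM with KCl. In Ler roots ARR7 had 55.1, 49.7 and 50.9 FPKM with KNO3, against 6.88, 10.9 and 12.2 FPKM with KCl. The KNO3 libraries of ARR7 were above its KCl libraries in both genotypes, with KIN10ox library 2 the lowest of the 6 KNO3 libraries. The authors' deposited tables gave ARR7 log2 fold changes of 1.76 in KIN10ox (adjusted p = 3.23e-22) and 2.48 in Ler (adjusted p = 3.74e-65). ARR15 had 1, 0 and 1 counts in KIN10ox roots with KNO3, against 7, 4 and 8 counts with KCl. In Ler roots ARR15 had 1, 4 and 9 counts with KNO3, against 13, 5 and 11 counts with KCl. The groups were apart in KIN10ox and overlapped in Ler. The authors' deposited table for KIN10ox lists ARR15 with a log2 fold change of -3.08 and an adjusted p of 0.160, so its difference did not pass the threshold of 0.05, and the Ler table does not list it. ARR15 was under the count minimum of the edgeR fit of all libraries, which therefore gives no test of it. ARR15 passed that minimum when single KIN10ox libraries were left out. Its adjusted p for nitrate in KIN10ox was 0.00877 to 0.0336 over 6 such edgeR fits. With a library left out, the filter asks for fewer libraries above the minimum. The counts that met it were 13 and 11 in Ler roots with KCl, the group where ARR15 was highest. Nothing is read from these p-values, which rest on 0 to 8 counts per KIN10ox library.

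**Figure D1:**
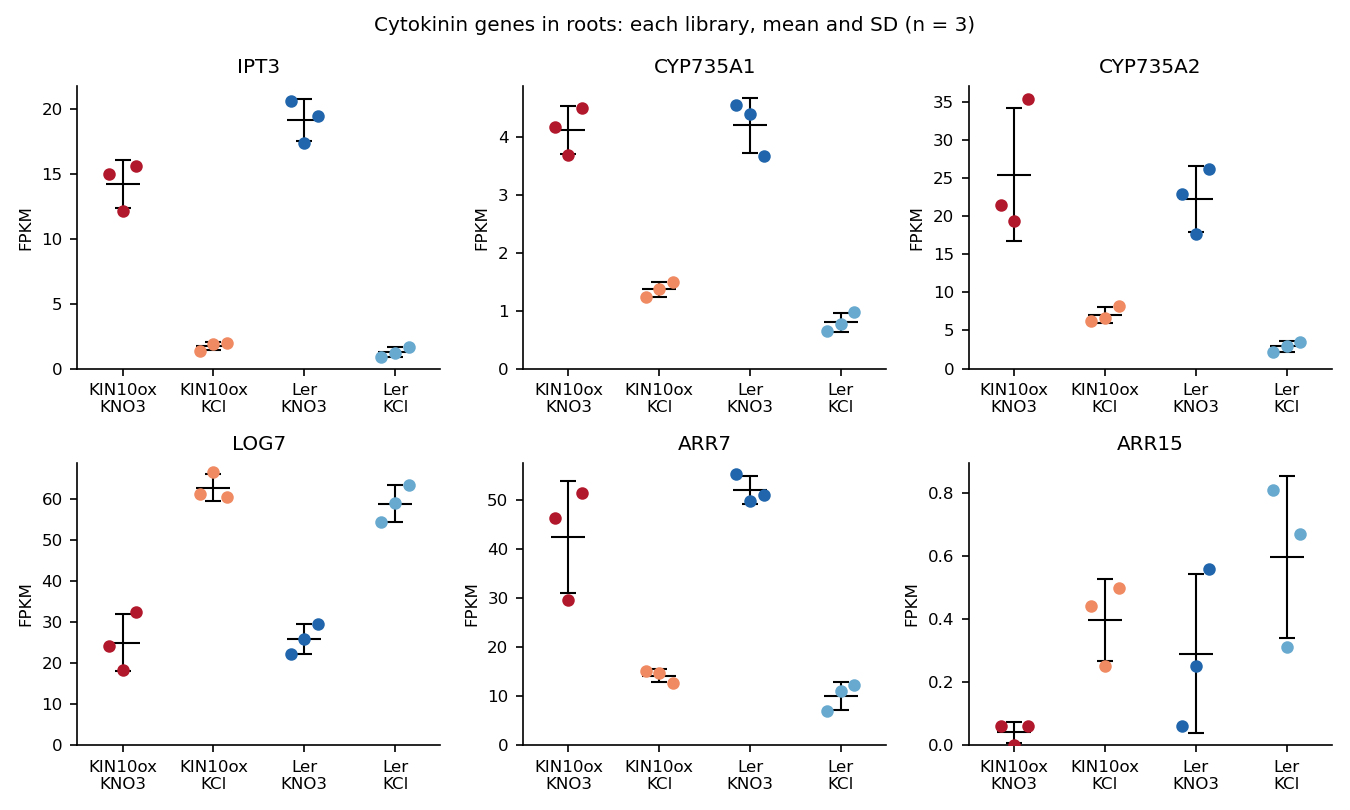
FPKM of the 6 cytokinin genes in each root library (points), with the group mean and SD (black, n = 3), each gene on its own linear axis. IPT3, CYP735A1, CYP735A2 and ARR7 are higher and LOG7 is lower with KNO3 in both genotypes, while ARR15 is below 1 FPKM throughout.

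By level, the order of the group means with KNO3 in KIN10ox roots was ARR7 at 42.4 ± 11.4, CYP735A2 at 25.5 ± 8.73, LOG7 at 25.0 ± 7.04, IPT3 at 14.2 ± 1.87, CYP735A1 at 4.11 ± 0.412 and ARR15 at 0.04 ± 0.035 FPKM (SD, n = 3). In Ler roots with KNO3 the means were 51.9 ± 2.85 for ARR7, 25.9 ± 3.64 for LOG7, 22.3 ± 4.35 for CYP735A2, 19.1 ± 1.64 for IPT3, 4.20 ± 0.473 for CYP735A1 and 0.29 ± 0.252 FPKM for ARR15. CYP735A2 and LOG7 were neighbours within their spread in both genotypes, ARR7 overlapped both in KIN10ox, and the IPT3 and CYP735A2 libraries overlapped in Ler. With KCl, LOG7 led at 62.8 ± 3.28 FPKM in KIN10ox and 59.0 ± 4.46 FPKM in Ler. ARR7 came next at 14.1 ± 1.31 FPKM in KIN10ox and 10 ± 2.78 FPKM in Ler. CYP735A2 followed with 7.04 ± 1.03 FPKM in KIN10ox and 2.90 ± 0.702 FPKM in Ler. The libraries of IPT3 and CYP735A1 overlapped each other at the low end in both genotypes. ARR15 had 0.397 ± 0.131 FPKM in KIN10ox, below both, and 0.597 ± 0.258 FPKM in Ler, where its libraries overlapped those of CYP735A1.

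KIN10ox and Ler roots were set against each other at each treatment with edgeR's quasi-likelihood test and Benjamini-Hochberg adjustment over the 972 root genes tested. The authors' lists did not use this contrast. They were made for nitrate from the same libraries, so the test is not independent of the listing. With KCl, both hydroxylase genes were higher in KIN10ox. CYP735A2 averaged 7.04 ± 1.03 FPKM in KIN10ox and 2.90 ± 0.702 FPKM in Ler, and the lowest KIN10ox library, at 6.27 FPKM, was above the highest Ler library, at 3.54 FPKM. Its log2 difference was 1.24 ± 0.27 (SE, edgeR adjusted p = 0.0106). CYP735A1 averaged 1.37 ± 0.125 FPKM in KIN10ox and 0.797 ± 0.162 FPKM in Ler, again without overlap, with a log2 difference of 0.77 ± 0.21 (edgeR adjusted p = 0.0295). The CYP735A1 call was lost on leaving out KIN10ox library 2 (adjusted p = 0.0601) or 3 (0.0766) or Ler library 1 (0.0925) or 2 (0.0953), all with KCl, in edgeR. CYP735A1 also missed the threshold with DESeq2 size factors (adjusted p = 0.0605). KIN10ox libraries 1 and 3 with KCl were those high in seed markers. Without both, CYP735A2 had a log2 difference of 1.13 (edgeR adjusted p = 0.138) and CYP735A1 of 0.77 (adjusted p = 0.195), with a single KIN10ox library left that is assumed to vary like the other groups.

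Among the 5 genes tested with KCl, 2 were called, both higher, where 7.72% of the 972 genes were called higher and 13.8% in either direction. Their median log2 difference was 0.50, beside 0.09 over all genes tested. IPT3 averaged 1.75 ± 0.330 FPKM in KIN10ox and 1.27 ± 0.386 FPKM in Ler, with overlapping libraries and a log2 difference of 0.47 ± 0.23 (edgeR adjusted p = 0.204). ARR7 averaged 14.1 ± 1.31 FPKM in KIN10ox and 10 ± 2.78 FPKM in Ler. Its lowest KIN10ox library, at 12.7 FPKM, was just above its highest Ler library, at 12.2 FPKM, and its log2 difference of 0.50 ± 0.23 did not pass (edgeR adjusted p = 0.177). LOG7 differed by 0.09 ± 0.17 (edgeR adjusted p = 0.787). The libraries of 3 of the 6 genes did not overlap, CYP735A1, CYP735A2 and ARR7, all higher in KIN10ox, as were those of 20% of the 1128 listed genes.

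With KNO3, none of the 5 genes was called, where edgeR called 11.6% of the 972 genes. At an unadjusted p under 0.05, edgeR had 28.2% of the 972 genes, and IPT3 was among them. IPT3 averaged 14.2 ± 1.87 FPKM in KIN10ox and 19.1 ± 1.64 FPKM in Ler, and the highest KIN10ox library, at 15.6 FPKM, was below the lowest Ler library, at 17.4 FPKM. Its log2 difference was -0.43 ± 0.18 (unadjusted p = 0.0376 and adjusted p = 0.146, edgeR), beside a median of -0.19 over all genes tested. IPT3 was at -0.22 both with DESeq2 size factors (DESeq2 adjusted p = 0.366) and with TMM factors (edgeR adjusted p = 0.401). It was the single gene of the 6 whose libraries did not overlap with KNO3, where 25.4% of the listed genes were apart with KIN10ox lower. The log2 differences of the others in edgeR were -0.03 ± 0.19 for CYP735A1 (adjusted p = 0.937), 0.19 ± 0.24 for CYP735A2 (adjusted p = 0.634), -0.05 ± 0.18 for LOG7 (adjusted p = 0.865) and -0.30 ± 0.21 for ARR7 (adjusted p = 0.367). The signs of CYP735A1 and LOG7 turned to positive values of 0.19 and 0.14 with DESeq2 size factors, and none of these values passed the threshold. Those factors moved the median of all 972 genes by 0.21 with KNO3, by -0.10 with KCl and by 0.31 for the difference of the nitrate responses.

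**Figure D2:**
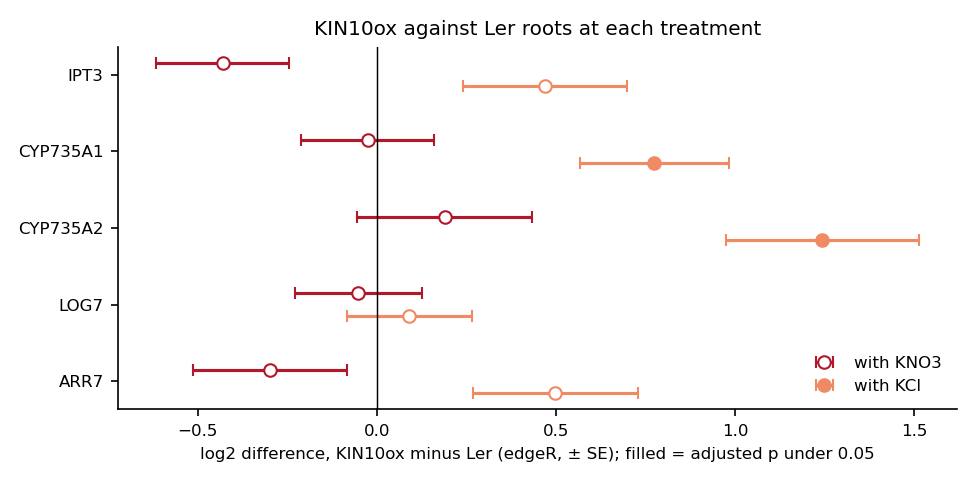
Difference between KIN10ox and Ler roots in log2 units (edgeR estimate, bars are SE) with KNO3 and with KCl for the 5 genes tested; filled points have an adjusted p under 0.05. CYP735A1 and CYP735A2 with KCl are the 2 filled points, at 0.77 and 1.24.

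The estimated rise with nitrate was smaller in KIN10ox than in Ler for IPT3, both CYP735A genes and ARR7, but the test of that difference called none of them. The mean of IPT3 was 8.13 ± 1.08-fold higher with KNO3 in KIN10ox and 15.1 ± 2.76-fold higher in Ler (SE, n = 3 each), a log2 difference of the responses of -0.90 ± 0.29 (edgeR, unadjusted p = 0.00969 and adjusted p = 0.143). CYP735A2 was 3.62 ± 0.778-fold higher in KIN10ox and 7.68 ± 1.38-fold higher in Ler, a difference of -1.05 ± 0.36 (edgeR, unadjusted p = 0.0128 and adjusted p = 0.154). CYP735A1 was 3.01 ± 0.236-fold higher in KIN10ox and 5.27 ± 0.706-fold higher in Ler, a difference of -0.80 ± 0.28 (edgeR, unadjusted p = 0.0136 and adjusted p = 0.155). For ARR7, 3.00 ± 0.493-fold in KIN10ox stood beside 5.19 ± 0.849-fold in Ler, a difference of -0.80 ± 0.31 (edgeR, unadjusted p = 0.0253 and adjusted p = 0.204). LOG7, which fell in both genotypes, differed by -0.14 ± 0.25 (edgeR adjusted p = 0.752), and this sign turned positive with TMM and DESeq2 factors.

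In this contrast edgeR called 0 of the 972 genes (0%), while DESeq2 called 20. At an unadjusted threshold of 0.05 edgeR had 187 genes (19.2%), of which 163 were below 0, and these held 4 of the 5 cytokinin genes. The estimates of these 4 were nearer 0 in DESeq2 with its own size factors. They were -0.59 ± 0.28 for IPT3, -0.76 ± 0.36 for CYP735A2, -0.49 ± 0.33 for CYP735A1 and -0.50 ± 0.28 for ARR7 (DESeq2 adjusted p = 0.236 to 0.497). The median over the 5 cytokinin genes was -0.80 and that over all genes tested was -0.26. On the FPKM scale, the smaller fold of both CYP735A genes went with higher KCl levels in KIN10ox, while their KNO3 levels overlapped. For IPT3 the KCl levels overlapped and the KNO3 levels were apart.

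**Figure D3:**
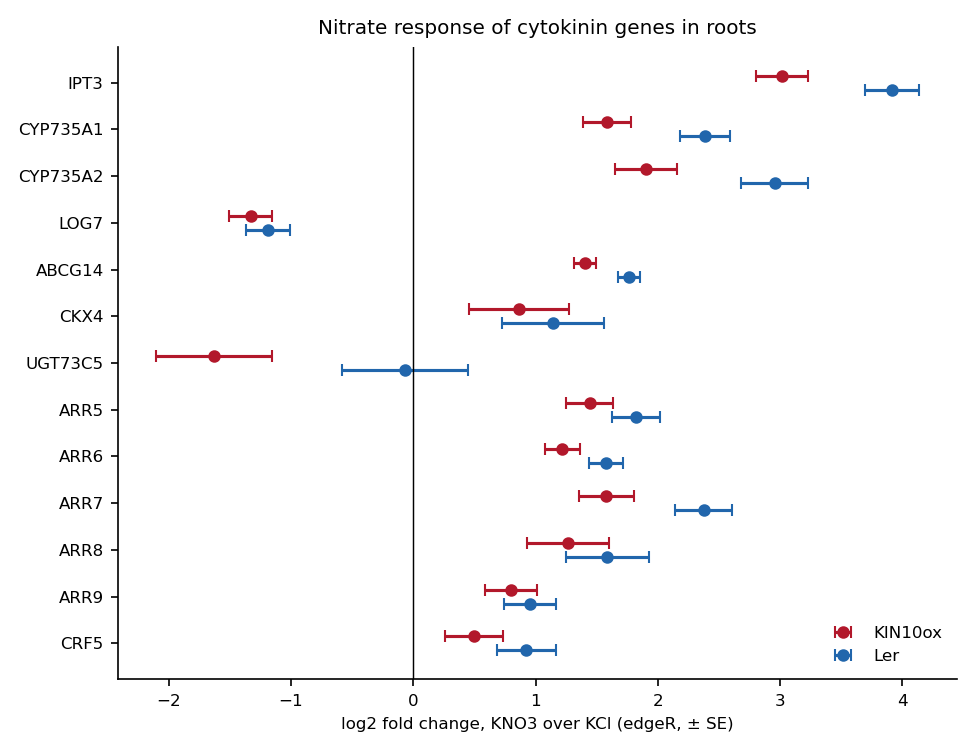
Log2 fold change with KNO3 over KCl in KIN10ox (red, upper) and Ler (blue, lower) roots for the 13 listed cytokinin genes tested by edgeR, with SE. Apart from LOG7 and UGT73C5 the points lie to the right of 0. The KIN10ox point lies left of the Ler point for all 13 genes, a difference that passed the test for none. CRF5 and ARR9 were listed only as higher with nitrate in Ler, and UGT73C5 only as lower in KIN10ox. For these genes that selection favours a KIN10ox point to the left. Most of the 972 genes tested lie the same way, with a median difference of -0.26. That median moved by 0.27 with TMM and by 0.31 with DESeq2 factors, and LOG7 then turned positive.

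In protoplasts, IPT3 was listed at 0 with GFP and had counts in every library that received NLP7. It had 0.32, 0.21 and 0.57 FPKM with NLP7 and KIN10, 3.02, 3.41 and 3.34 FPKM with NLP7 alone, and 0, 0 and 0 FPKM with GFP. These rest on 9, 6 and 13 counts with NLP7 and KIN10, and on 80, 83 and 89 counts with NLP7. The 3 groups of IPT3 did not overlap. NLP7 with KIN10 stood above GFP without overlap for 35.8% of the 2065 genes. Against a floor of 3 counts over the GFP group, IPT3 was at least 78.3-fold higher with NLP7 and at least 8.48-fold higher with NLP7 and KIN10. The authors' deposited tables gave log2 fold changes of 8.69 (adjusted p = 1.44e-11) for NLP7 and 5.58 (adjusted p = 0.00313) for NLP7 with KIN10, values that depend on how a group of zeros is treated.

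LOG7 and ARR7, which moved in opposite directions with nitrate in roots, were both higher with NLP7 in protoplasts in the FPKM values and the authors' deposited table. With DESeq2 factors over the listed genes, most of which are higher with NLP7, both signs turned, to -0.23 for LOG7 (adjusted p = 0.758) and -0.52 for ARR7 (adjusted p = 0.167). LOG7 had 0.69, 0.44 and 0.12 FPKM with NLP7 and KIN10, 1.46, 1.03 and 0.83 FPKM with NLP7, and 0.32, 0.24 and 0.63 FPKM with GFP. These levels rest on 2 to 28 counts per library. The NLP7 libraries were above all GFP libraries, and those with NLP7 and KIN10 overlapped the GFP range. In the authors' deposited table LOG7 rose with NLP7 by a log2 fold change of 1.41 (adjusted p = 0.0434). ARR7 had 2.06, 1.09 and 1.56 FPKM with NLP7 and KIN10, 4.52, 3.75 and 5.86 FPKM with NLP7, and 1.53, 2.73 and 2.12 FPKM with GFP. Here too the NLP7 libraries were above the rest, and the other groups overlapped. The NLP7 libraries of all 3 genes were above GFP without overlap, as were those of 90.1% of the 2065 genes. The authors' deposited table gave ARR7 a log2 fold change of 1.10 with NLP7 (adjusted p = 0.00428). The table for NLP7 with KIN10 does not list LOG7 or ARR7, and their means in that group were 1.05 ± 0.522 and 0.738 ± 0.178 times those with GFP (SE, n = 3 each). All 3 genes passed an adjusted p of 0.05 in the authors' deposited table for NLP7, in which 84.2% of the 1985 genes passed as higher. IPT3 passed in the authors' deposited table for NLP7 with KIN10, in which 62.2% of the 455 genes passed as higher, and nothing is read from counts in lists made for these contrasts.

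**Figure D4:**
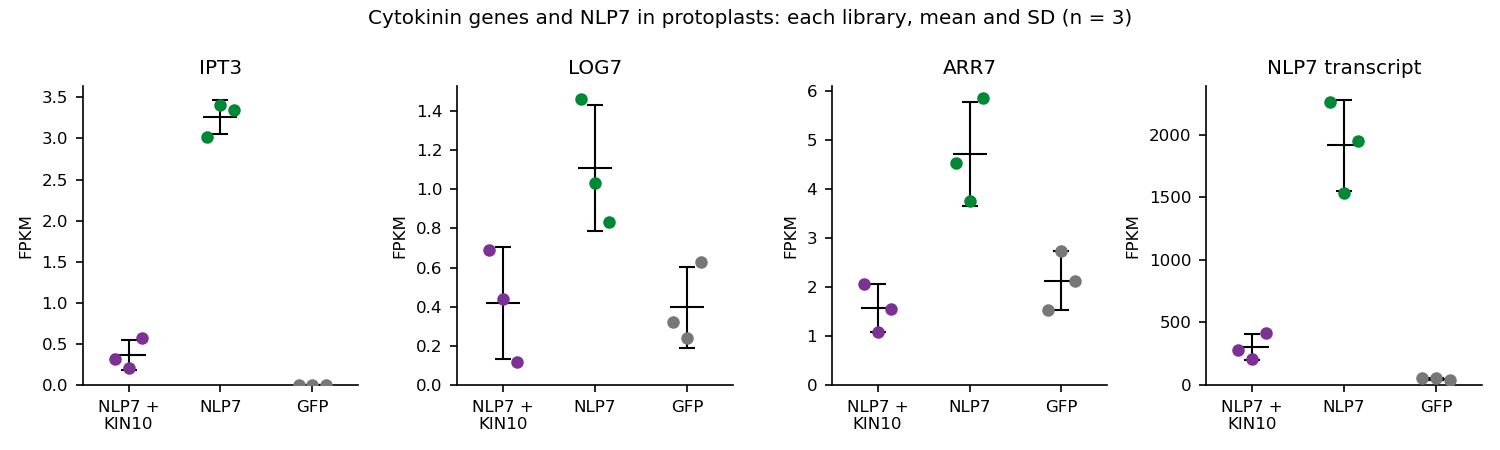
FPKM of IPT3, LOG7 and ARR7 and of the NLP7 transcript in each protoplast library (points), with the group mean and SD (black, n = 3), each on its own linear axis. For all 4 transcripts the libraries with NLP7 alone are above those with NLP7 and KIN10.

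All 3 cytokinin genes were lower with NLP7 and KIN10 than with NLP7 alone in edgeR's test over 1722 protoplast genes, as were 86.4% of those genes. LOG7 and ARR7 have protoplast values only because the authors listed them as higher with NLP7 than with GFP. The same NLP7 libraries are the reference here, so that selection favours a lower value with KIN10. IPT3 was also listed for NLP7 with KIN10. IPT3 averaged 0.367 ± 0.185 FPKM with NLP7 and KIN10 and 3.26 ± 0.208 FPKM with NLP7 (SD, n = 3 each), 8.88 ± 2.6-fold lower, with a log2 difference of -3.18 ± 0.32 (edgeR adjusted p = 9.23e-07). ARR7 averaged 1.57 ± 0.485 FPKM with NLP7 and KIN10 and 4.71 ± 1.07 FPKM with NLP7, a log2 difference of -1.59 ± 0.30 (edgeR adjusted p = 1.50e-04). LOG7 averaged 0.417 ± 0.286 FPKM with NLP7 and KIN10 and 1.11 ± 0.322 FPKM with NLP7, a log2 difference of -1.35 ± 0.45 (edgeR adjusted p = 0.0107). The libraries of all 3 genes were lower with KIN10 without overlap, as were those of 83.4% of the 2065 genes. The median of the 3 genes was -1.59 and that of all genes tested was -1.47. Scaling to the listed genes, most of which differ between these groups, moved the median of all genes by 1.481 with TMM factors and by 1.27 with DESeq2 factors. Under DESeq2 factors IPT3 was still lower (log2 difference -1.93, adjusted p = 1.72e-05), while ARR7 was at -0.31 (adjusted p = 0.454) and LOG7 at -0.06 (adjusted p = 0.934). In edgeR, LOG7 also missed the threshold without NLP7 library 1 (adjusted p = 0.0634).

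The NLP7 transcript was also lower with NLP7 and KIN10 than with NLP7 alone. It had 280, 212 and 417 FPKM with NLP7 and KIN10, 2261, 1536 and 1950 FPKM with NLP7, and 52.7, 53.7 and 43.2 FPKM with GFP. Its mean was 6.32 ± 1.44-fold lower with KIN10 than without (SE, n = 3 each). With NLP7 and KIN10 that mean was still 6.08 ± 1.28-fold above GFP. In that group LOG7 and ARR7 overlapped the GFP libraries, and IPT3 did not. The KIN10 transcript had 407, 287 and 546 FPKM with NLP7 and KIN10, 26.2, 27.4 and 30.1 FPKM with NLP7, and 32.4, 33.1 and 31.6 FPKM with GFP. These values may hold transcripts of the plasmids and of the plant's own gene, and they follow the labels of the transfections. An action of KIN10 on the cytokinin genes and a lower amount of NLP7 transcript cannot be told apart in these libraries. Of the leaf markers, RBCS2B and CAB1, 2 of 12, were listed in protoplasts and summed to 654 to 1106 FPKM with NLP7 and KIN10, 1119 to 1264 FPKM with NLP7 and 415 to 468 FPKM with GFP. The root markers GL2 and SCR, 2 of 6, summed to 4.41 to 6.22 FPKM with NLP7 and KIN10, 17.0 to 24.5 FPKM with NLP7 and 2.38 to 2.58 FPKM with GFP, and their part in the results was not tested.

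The remaining steps of the pathway were read from a list of 65 cytokinin genes, 59 of them other than the 6. In roots, 8 of these 59 were listed: the type-A regulators ARR5, ARR6, ARR8 and ARR9, the response factor gene CRF5, the export transporter gene ABCG14, the cytokinin oxidase gene CKX4 and UGT73C5, a glucosyltransferase gene. None of the 3 receptor and 7 type-B regulator genes was listed in any table, and neither was another of the 9 isopentenyltransferase or 9 LOG genes. In the authors' deposited tables, of the other genes, 5 of 6 listed in KIN10ox and 7 of 7 listed in Ler rose with nitrate and passed an adjusted p of 0.05, in lists made for these contrasts where 45.5% of the KIN10ox genes and 64.2% of the Ler genes did so. ABCG14 averaged 133 ± 2.30 FPKM with KNO3 and 50.0 ± 2.53 FPKM with KCl in KIN10ox roots, and 139 ± 4.44 FPKM with KNO3 and 41.1 ± 3.70 FPKM with KCl in Ler roots. In the authors' deposited tables its log2 fold change was 1.62 in KIN10ox (adjusted p = 1.01e-36) and 1.87 in Ler (adjusted p = 4.25e-149).

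The listed type-A regulators other than ARR15 rose with nitrate, as ARR7 did, in each table that lists them. ARR5 averaged 35.0 ± 11.2 FPKM with KNO3 and 12.9 ± 0.834 FPKM with KCl in KIN10ox roots, and 32.4 ± 0.870 FPKM with KNO3 and 9.15 ± 0.934 FPKM with KCl in Ler roots. ARR6 averaged 64.3 ± 11.8 FPKM with KNO3 and 27.5 ± 1.25 FPKM with KCl in KIN10ox roots, and 70.4 ± 3.68 FPKM with KNO3 and 23.6 ± 3.04 FPKM with KCl in Ler roots. In the authors' deposited tables for KIN10ox and Ler the log2 fold changes were 1.63 and 1.93 for ARR5, 1.41 and 1.68 for ARR6, and 1.43 and 1.70 for ARR8, with ARR9 listed in Ler alone at 1.06. KIN10ox library 2 with KNO3 was the lowest of the 6 KNO3 libraries for ARR5, ARR6, ARR7, ARR8 and ARR9, and its ARR8 level of 15.6 FPKM and ARR9 level of 16.5 FPKM lay within the range of the KIN10ox libraries with KCl. CKX4 rose by a log2 fold change of 1.04 in KIN10ox (adjusted p = 0.0178) and 1.26 in Ler (adjusted p = 2.07e-04), and CRF5 by 1.03 in Ler (adjusted p = 1.71e-04), in the authors' deposited tables. Those log2 fold changes lay a median of 0.196 above edgeR's over the genes of the KIN10ox table and 0.103 above them in the Ler table. For CKX4, edgeR gave 0.86 ± 0.41 in KIN10ox, which did not pass (adjusted p = 0.0605), and 1.145 ± 0.416 in Ler (adjusted p = 0.0223). Its KIN10ox libraries had 2.74, 2.45 and 6.54 FPKM with KNO3, against 1.91, 2.26 and 2.27 FPKM with KCl. UGT73C5, whose enzyme glucosylates cytokinins and also brassinosteroids, had a log2 fold change of -1.45 in the authors' deposited table for KIN10ox and did not pass (adjusted p = 0.170). EdgeR gave it -1.63 ± 0.47 (adjusted p = 0.00641) for this contrast, for which it was listed. Its KIN10ox libraries had 0.12 to 0.6 FPKM.

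Between the genotypes, edgeR called 1 of these 8 genes with KCl, ABCG14, higher in KIN10ox by 0.28 ± 0.09 (adjusted p = 0.0490), beside 7.72% of the 972 genes called higher, and 0 with KNO3 or for the difference of the responses. The ABCG14 call was lost with DESeq2 size factors (0.19, adjusted p = 0.350), with TMM factors (0.22, adjusted p = 0.243) and on leaving out any 1 of the KIN10ox libraries with KCl. It was also lost on leaving out Ler library 1 or 2 with KCl, KIN10ox library 1 with KNO3 or any 1 of the Ler libraries with KNO3 (adjusted p = 0.0599 to 0.159 over these edgeR fits). ARR5 differed by 0.49 ± 0.19 with KCl and did not pass (edgeR adjusted p = 0.119), and UGT73C5 by 1.38 ± 0.46 (edgeR adjusted p = 0.0636).

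In protoplasts, 9 of the 59 were listed for NLP7, all higher than with GFP in the authors' deposited table, where all 9 passed an adjusted p of 0.05, as did 84.2% of its 1985 genes in that direction: CRF3, CRF4, CRF5 and CRF6, the oxidase genes CKX1, CKX4 and CKX6, the phosphotransfer gene AHP3, and ABCG14 at 0.04 to 0.14 FPKM. Their median log2 fold change of 1.61 stood beside 2.07 over all 1985 genes of that table. CKX4, which breaks cytokinins down, was the most abundant cytokinin gene listed in protoplasts by FPKM, with 72.0 ± 6.69 FPKM with NLP7 and KIN10, 170 ± 24.4 FPKM with NLP7 and 53.9 ± 2.02 FPKM with GFP (SD, n = 3). CKX6 had 0.31, 0.34 and 0.43 FPKM with NLP7 and KIN10, 2.34, 1.92 and 2.08 FPKM with NLP7, and 0, 0.04 and 0 FPKM with GFP. Like IPT3, CKX6 was high with NLP7, lower but above the GFP libraries with KIN10 added, and close to 0 with GFP, and these were the 2 genes of the list in the table for NLP7 with KIN10. For KIN10 added to NLP7, edgeR called 8 of the 8 genes tested lower, where 86.4% of all 1722 genes were called lower. The median of the 8 was -1.35, beside -1.47 over all genes. Except for CKX6, these genes were listed only as higher with NLP7 than with GFP, which favours a lower value against the same NLP7 libraries. CKX6 had a log2 difference of -2.56 ± 0.29 (edgeR adjusted p = 9.83e-07) and CKX4 of -1.25 ± 0.14 (adjusted p = 8.69e-07). With DESeq2 factors over the listed genes, 5 of the 8 lost the call, CRF3 at 0.24, CRF4 at 0.28, CRF5 at 0.27, CRF6 at -0.17 and CKX4 at 0.04 (adjusted p = 0.197 to 0.799). With TMM factors CRF3 (0.45, adjusted p = 0.0364) and CRF5 (0.48, adjusted p = 0.0136) turned to a call as higher in edgeR, CRF4 was at 0.49, CRF6 at 0.04, CKX4 at 0.24 and AHP3 at -0.38 without a call, and CKX1 and CKX6 were still called lower.

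Over the 12 root libraries, the Pearson correlation of log2(FPKM + 1) was 0.98 between IPT3 and CYP735A1, 0.97 between CYP735A1 and CYP735A2, 0.98 between IPT3 and ARR7, and -0.92 between IPT3 and LOG7. These libraries share their treatment groups, which set most of each value, and the figures are a description. Among 818 listed root genes with a mean of at least 1 FPKM, the genes most like IPT3 were AT3G47980 (0.997) and AT4G09620 (0.996), and those most like CYP735A1 were ASN2 (0.994) and HRS1 (0.991). CYP735A2 was most like ARR5 (0.979) and ZFP4 (0.979), LOG7 most like FBH3 (0.991) and CRK25 (0.990), and ARR7 most like ARR6 (0.992) and CYP90D1 (0.990). With log2(FPKM + 0.1), AT5G58900 took the place of HRS1 for CYP735A1, and SKOR that of ARR5 for CYP735A2. ARR15, with its few counts, was most like POR C (0.916) and AT5G45950 (0.910). Over the 9 protoplast libraries, IPT3 was most like AT4G28410 (0.998) and AT4G29700 (0.997), ARR7 most like AT2G32220 (0.965) and AT2G14880 (0.964), and LOG7 most like QQT2 (0.922) and AR192 (0.920). Neither gene named for LOG7, which had few counts, stayed with log2(FPKM + 0.1) or without the limit on mean FPKM. AT4G29700 also dropped out under both settings, and AT2G14880 without the limit.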

How the data were processed

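RNA was sequenced on a BGISEQ-500 instrument, and the submitters' processing notes name HISAT, Bowtie2 and TAIR10. Tool versions, read strand and the counting settings are not stated there. The authors deposited 4 tables of genes selected for a comparison (862 for nitrate in KIN10ox, 770 for nitrate in Ler, 1985 for NLP7 and 455 for NLP7 with KIN10). Per the file headers, these hold FPKM and expected counts per library, and the authors' log2 fold change, p-value and adjusted p-value. The headers name DESeq2, the study's description NOISeq with a 2-fold limit and a probability over 0.8. The 18 columns of samples outside the sample list were not used. Gene identifiers and coordinates were those of the tables, and all 6 members had the same coordinates in the RefSeq TAIR10.1 assembly.

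The members, the pathway and marker lists and the alternatives were chosen with earlier results of these data known. For comparisons that have a table, calls are the authors' at an adjusted p under 0.05, and folds are ratios of mean FPKM with no pseudocount. Other comparisons used edgeR 4.0.16 (R 4.3.3) on expected counts rounded to whole numbers, with genes kept by filterByExpr, 1 dispersion fit over all groups of a tissue and library sizes recovered from counts and FPKM. An SE is the log2 difference divided by the square root of F. P-values were Benjamini-Hochberg adjusted over the listed genes tested (threshold 0.05), which were selected on the same libraries, so the shares called hold for listed genes alone. DESeq2 1.42.0 and limma 3.58.1 were alternatives. The fits were tested on simulated data.

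Named genes were the members, every listed gene of the pathway list, and for each member the 2 listed genes with the highest correlation. Per the labels, libraries of a group are biological replicates. A chi-square of counts between libraries of a group gave 3.28 to 79.6 per degree of freedom, so all differed beyond counting error. Floors of 3 counts cover counting error only. With 3 libraries a group, an exact permutation test cannot pass the threshold. The labels name Ler seedlings in 1 field and Col-0 plants in another for the protoplasts, and the second was used.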

Additional observations from a re-analysis of the deposited data

How the results depend on the processing

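With KCl, the count of cytokinin genes called higher in KIN10ox than in Ler was 2, and it was 1 with DESeq2 size factors, with a fit of the groups compared alone and with limma on log2(FPKM + 1), and 1 to 2 on leaving out each library. Without both KIN10ox libraries high in seed markers it was 0, and the count over all listed genes was 44 beside 134, and 74 to 179 on leaving out each library (88 without KIN10ox library 1 and 74 without Ler library 2, both with KCl). LOG7 with KCl was -0.0103 with DESeq2. With KNO3 no cytokinin gene was called under any alternative, and the count over all genes was 113, and 52 to 115 without single libraries, with 74 and 69 without KIN10ox libraries 1 and 2 and 52, 60 and 61 without Ler libraries 1, 2 and 3, all with KNO3. There LOG7 was 0.143 with DESeq2 and 0.135 with TMM and -0.29 to 0.13 without single libraries, CYP735A1 was 0.19 and 0.18 and -0.113 to 0.0497, and CYP735A2 was -0.12 to 0.34. For the difference of the nitrate responses no cytokinin gene was called under any alternative, and over all genes the count was 0, and 20 with DESeq2, 6 with limma, 41 with DESeq2 and the recovered library sizes, 1 without both libraries high in seed markers and 0 to 19 without single libraries (19 and 15 on leaving out KIN10ox library 2 or Ler library 1 of the KCl groups, and 2 on leaving out KIN10ox library 3 of the KNO3 group). LOG7 there was 0.15 with DESeq2, 0.11 with TMM and -0.377 to 0.0376 without single libraries.

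For NLP7 with KIN10 against NLP7, 3 cytokinin genes and 1554 genes in all were called; DESeq2 called 1 and 899, and TMM called 1 cytokinin gene, with LOG7 at 0.15. Without single libraries the counts were 2 to 3 and 1484 to 1617. For NLP7 against GFP, DESeq2 called 1 cytokinin gene and 967 genes, beside 3 and 1763, with LOG7 at -0.23 and ARR7 at -0.52. These size factors centre the listed genes, most of which are higher with NLP7, by construction. With DESeq2 and the recovered library sizes, chosen after seeing the data like the fit without both libraries, all 3 cytokinin genes were called in both comparisons.

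The replicate numbers were not taken as pairs, since for no pair of groups did all same-numbered libraries have a correlation over 0.1. With the numbers as a block in the fit, the count of cytokinin genes called was 2 with KCl and 3 for KIN10 added to NLP7, and over all genes it was 137 with KCl, 116 with KNO3, 0 for the difference of the responses and 1550 for KIN10 added to NLP7. ARR15, under the count minimum with all libraries, passed it in each of the 6 fits without a single KIN10ox library and had an adjusted p of 0.00877 to 0.0336 for nitrate there, while without both KIN10ox libraries high in seed markers it was at -2.39 and did not pass (adjusted p = 0.130). LOG7 in protoplasts and ARR15 in roots are limited by counts under 30 per library.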
